A study of Zea mays with 16 samples.

Results

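The group described here is a set of 92 probes whose signal was lower in water-stressed than in well-watered maize kernels in each of 4 recombinant inbred lines. The array carries 1000 probes. A probe entered the group on 2 values. Its mean log2 signal in the well-watered channel over 16 arrays had to rank below the 100 highest and no lower than rank 800, which left 700 probes, and its mean log2 ratio of stress over well watered had to be below 0 in every line. Every ratio of this rule is relative to the median probe of its array, so 0 means a change equal to that of the median probe. Since the members were chosen on these ratios, the ratios below are a description, and no test of them is read as support.

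Kernels were taken 10 days after pollination from field-grown plants. RIL60 and RIL78 are labelled tolerant, and RIL66 and RIL68 susceptible. Stressed plants had a soil moisture near 16% of dry weight from 3 weeks before flowering, against about 30% for well-watered plants, with 2 randomised field blocks for each level. Each RNA was poly(A) RNA from a pool of 6 to 9 kernels of 3 ears, so the values do not show the spread between single ears or kernels. A recombinant inbred line is a fixed inbred genotype from a cross, and every comparison here was made within a line. Every line had 4 arrays, each holding a stressed and a well-watered sample of that line in different dyes. Stress was in Cy5 on 2 arrays of each line and in Cy3 on the other 2. Per the design text, the 4 arrays are repeat hybridisations. Separate extracts are not stated for them, so p-values within and between lines reflect a spread between arrays that may be technical, and each line may stand on 1 RNA per treatment.

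At this stage a maize kernel is made up mostly of young endosperm, in which cell division gives way to the storage of starch and protein, around a small embryo and inside maternal tissue. The kernel lives on sucrose from the mother plant. Drought around flowering and early grain filling lowers that supply, and young kernels of stressed ears may stop growing or abort. In a whole kernel, fewer cells of a type and less RNA per cell cannot be told apart. No file pairs a probe ID with a gene, and 0 of the 1000 IDs occurred in the gene table used here. Therefore no function is given for any probe, neither kernel marker genes nor gene lists could be looked up, and the members are given by ID.

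The arrays differed in quality. On each array 30.3% to 76.3% of probe spots exceeded their local background by more than 2 background standard deviations in either channel. The correlation of the log ratios of duplicate spots ran from 0.234 to 0.843, and the number of arrays and these signals limit the precision. The 92 probes were among the brighter ones: their median number of arrays above background was 12.5 of 16 in the stress channel and 14 of 16 in the well-watered channel, against 8 and 10 over all probes. The rule also chose on well-watered level, so the choice of members partly fixes this difference.

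The falls were small. The mean of the 4 line ratios ran from -0.35 to -0.05 over the 92 probes, with a median of -0.21, which is a level 1.16-fold lower under stress. The probe with the lowest mean was 1.27-fold lower. Over all 1000 probes the median of the same mean was 0.0057. Of all probes, 110 were below 0 in all 4 lines, or 11%, and 129 were above 0 in all 4. Within the 700 probes that passed the rule on level, 92 were below 0 in all 4 lines, or 13.1%, and 59 were above 0 in all 4, or 8.43%.

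The lines contributed unequally. The median ratio of the 92 probes was -0.35 in RIL66, -0.20 in RIL78, -0.12 in RIL68 and -0.08 in RIL60. RIL66 was the lowest of the 4 lines for 61 of the 92 probes, and RIL60 was the highest for 48. The median standard deviation of a probe's ratio between the 4 arrays of a line was 0.24 in RIL66, 0.24 in RIL78, 0.22 in RIL68 and 0.19 in RIL60. In RIL60 the ratio was smaller than 1 standard deviation for 74 of the 92 probes, in RIL68 for 76, in RIL78 for 58 and in RIL66 for 27. Many members therefore passed by little: 51 had a line above -0.05, and 25 had a line above -0.02. The ratio was below -0.1 in every line for 12 probes and below -0.2 in every line for 1.

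Counted by array, 1121 of the 1472 ratios of the 92 probes were below 0, or 76.2%. No probe was below 0 on all 16 arrays. The median probe was below 0 on 12 of them, and 5 were below 0 on 15. The arrays of a line did not all share the direction: on RIL60 replicate 2 only 37 of the 92 probes were below 0 and their median ratio was 0.09, while on RIL60 replicate 4 the count was 82 and the median -0.28. The largest count was 90, on RIL66 replicate 4, where the median was -0.57. Leaving out RIL60 replicate 2 raised the number of probes that met the rule to 144, of which 90 were among the 92.

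**Figure D1:**
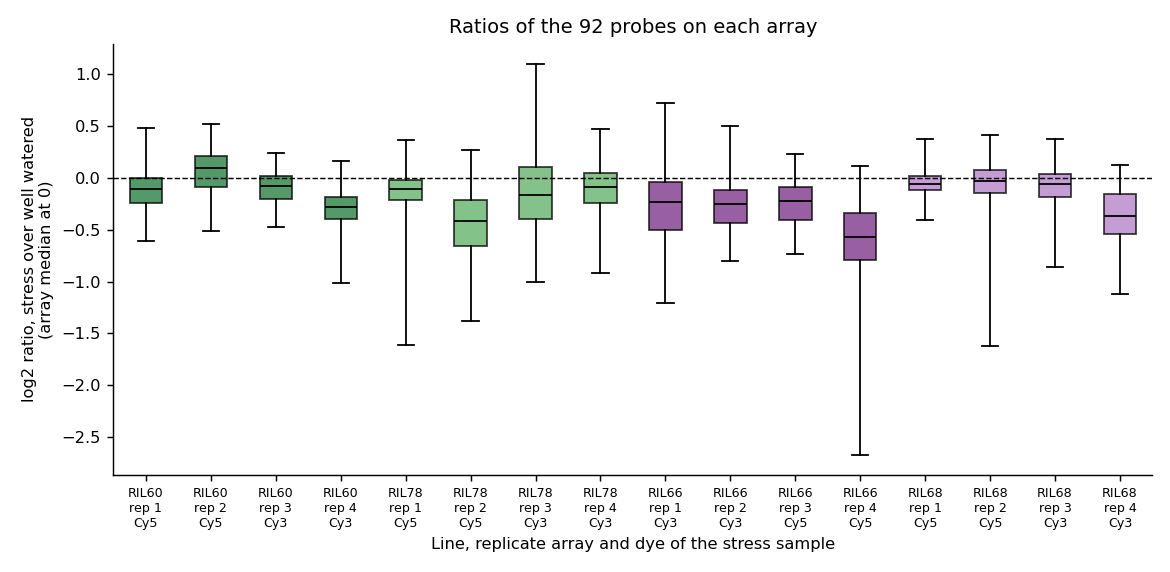
Log2 ratio of stress over well watered (y axis, array median at 0) of the 92 probes on each of the 16 arrays (x axis, by line, replicate and dye of the stress sample). The line in a box is the median, the box spans the quartiles and the whiskers reach the lowest and highest probe. The median is above 0 on RIL60 replicate 2 alone and lowest on RIL66 replicate 4, at -0.57.

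The probe with the lowest mean ratio was a116pe0578, at -0.35. In RIL66 its 4 arrays gave -1.15, -0.55, -0.70 and -0.97, a mean of -0.84 ± 0.27 (SD, n = 4 arrays). In RIL78 they gave -0.20, -0.43, -0.18 and -0.61, a mean of -0.36 ± 0.21 (SD, n = 4). In these 2 lines all 8 arrays were below 0. In RIL68 the arrays gave 0.05, 0.16, -0.33 and -0.54, and in RIL60 0.0019, 0.21, -0.15 and -0.18. The arrays of these 2 lines lay on both sides of 0, and the mean of RIL60 was -0.03 ± 0.18 (SD, n = 4). Probe a116pe0578 also had the highest well-watered level of the group, at rank 108. Before the array median was taken off, its log2 signal in the stress channel ran from 10.74 to 13.96, with a median of 12.07. In the well-watered channel it ran from 10.66 to 13.82, with a median of 12.04. These ranges overlapped almost fully, but they include differences in brightness between arrays and ignore the pairing of the channels on each array.

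The second lowest mean ratio, also -0.35, belonged to a116pe0778, which was the lowest member in RIL78 and in RIL68. In RIL78 it had -0.11, -0.19, -1.003 and -0.92, and in RIL68 0.04, -0.46, -0.86 and -0.76. In RIL66 it had -0.26, -0.57, 0.16 and -0.56. In RIL60 it had 0.48, 0.51, -0.48 and -0.56, so the mean of -0.01 there averaged 2 arrays far above 0 and 2 far below. On the arrays with stress in Cy5 its mean ratio was -0.01, against -0.68 with stress in Cy3.

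Probes a116pe0637 and a116pe0829 were each below 0 on 15 of 16 arrays. Probe a116pe0637 had -0.58, -0.44, -0.33 and -0.70 in RIL66, and -0.18, -0.22, -0.23 and -0.89 in RIL68. In RIL78 it had -5.9e-05, -0.88, -0.58 and -0.03, and in RIL60 -0.04, 0.11, -0.07 and -0.30. It was thus below 0 on all arrays of 3 lines, with the smallest ratios in RIL60. Probe a116pe0829 was the lowest member in RIL60, where it had -0.48, -0.30, -0.31 and -1.01. In RIL66 it had -0.29, -0.49, -0.09 and -0.35, in RIL68 -0.04, -0.02, -0.26 and -0.63, and in RIL78 0.14, -0.22, -0.30 and -0.17. Only the first RIL78 array was above 0.

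**Figure D2:**
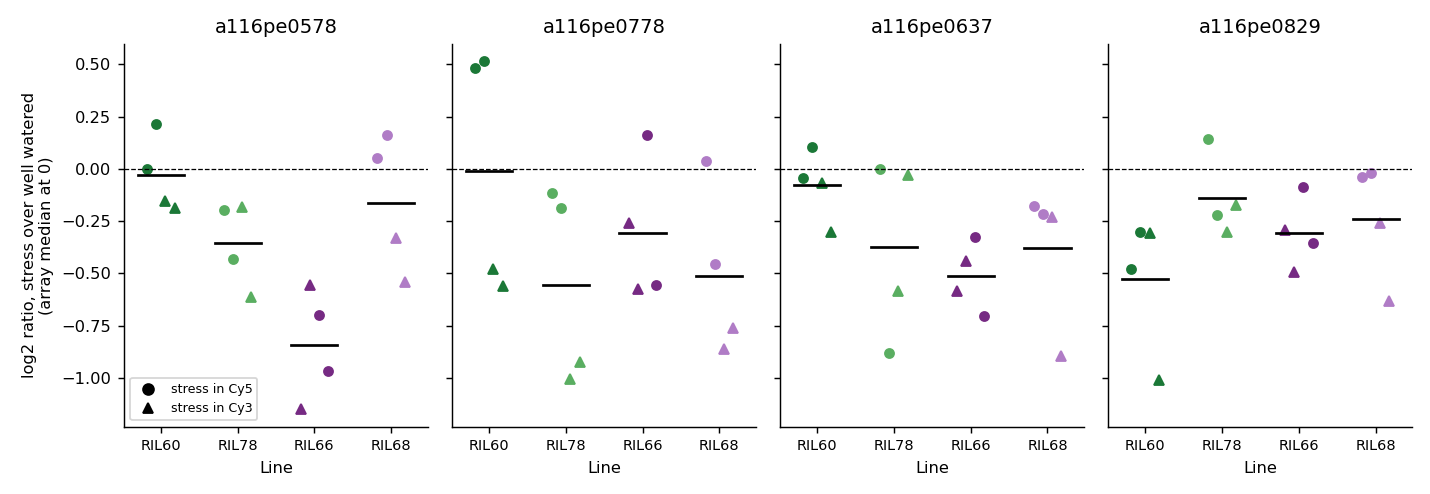
Log2 ratio of stress over well watered (y axis, array median at 0) of 4 probes by line (x axis). Each point is an array, circles with stress in Cy5 and triangles with stress in Cy3, and each bar is the mean of 4 arrays. Probes a116pe0637 and a116pe0829 are below 0 on 15 of 16 arrays, and a116pe0578 and a116pe0778 on 12.

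The lowest member in RIL66 was a116pe0567, at -0.95 ± 1.16 (SD, n = 4 arrays). That mean rested on replicate 4, at -2.67, since the other 3 arrays gave -0.20, -0.50 and -0.41. Its means were -0.12 in RIL78, -0.06 in RIL60 and -0.0058 in RIL68. At the dim end of the group, a116pe0607 had rank 541 and means of -0.13 in RIL66, -0.08 in RIL68, -0.04 in RIL78 and -0.03 in RIL60. The probe just inside the rule was a116pe0612, whose mean in RIL66 was -0.00031. The probe just outside was a116pe0591, whose mean in RIL68 was 0.0001 with the other 3 lines below 0.

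Membership followed the signal level. Of the 92 probes, 48 came from the 200 brightest of the 700, 43 from the next 200 and 1 from the remaining 300, and no member ranked below 541. The median of the mean ratio over all probes fell with level too: it was -0.27 over the 100 brightest probes and 0.10 over ranks 701 to 800. In RIL66 the median ratio was -0.83 over the 100 brightest probes and 0.29 over ranks 701 to 800. Across the 1000 probes, which share arrays and background, Spearman's rho between a line's ratio and the well-watered level was -0.87 in RIL66, -0.55 in RIL68, -0.48 in RIL78 and 0.31 in RIL60. The well-watered signal is part of both measures. In RIL60 the bright probes were thus on the high side, and it was there that the members' ratios were nearest 0.

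A different within-array normalisation, loess on normexp-corrected intensities, subtracts from each ratio a curve fitted against the mean signal of both channels on that array. After it, rho was -0.24 in RIL66, -0.20 in RIL68, -0.14 in RIL78 and 0.02 in RIL60. Of the 92 probes, 30 were then below 0 in all 4 lines, 45 in 3 lines and 17 in 2 or fewer, while over all 1000 probes 9.4% were below 0 in all 4. The mean ratio was below 0 for 88 of the 92 after loess, with a median of -0.12, against 0.0051 over all probes. The members' median by line became -0.18 in RIL60, -0.17 in RIL78, -0.10 in RIL68 and -0.03 in RIL66, so RIL66, the line with the lowest ratios by the rule, had those nearest 0 after loess. Thus 30 of the 92 probes were below 0 in all 4 lines under both treatments of the arrays, and the other 62 went against the description of the group in at least 1 line after loess. In the authors' deposited table of log2 ratios, 42 of the 92 were below 0 in all 4 lines, beside 10.7% of all probes, and the mean over the lines was below 0 for 92. These are ratios of the same arrays and contrast that chose the members.

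**Figure D3:**
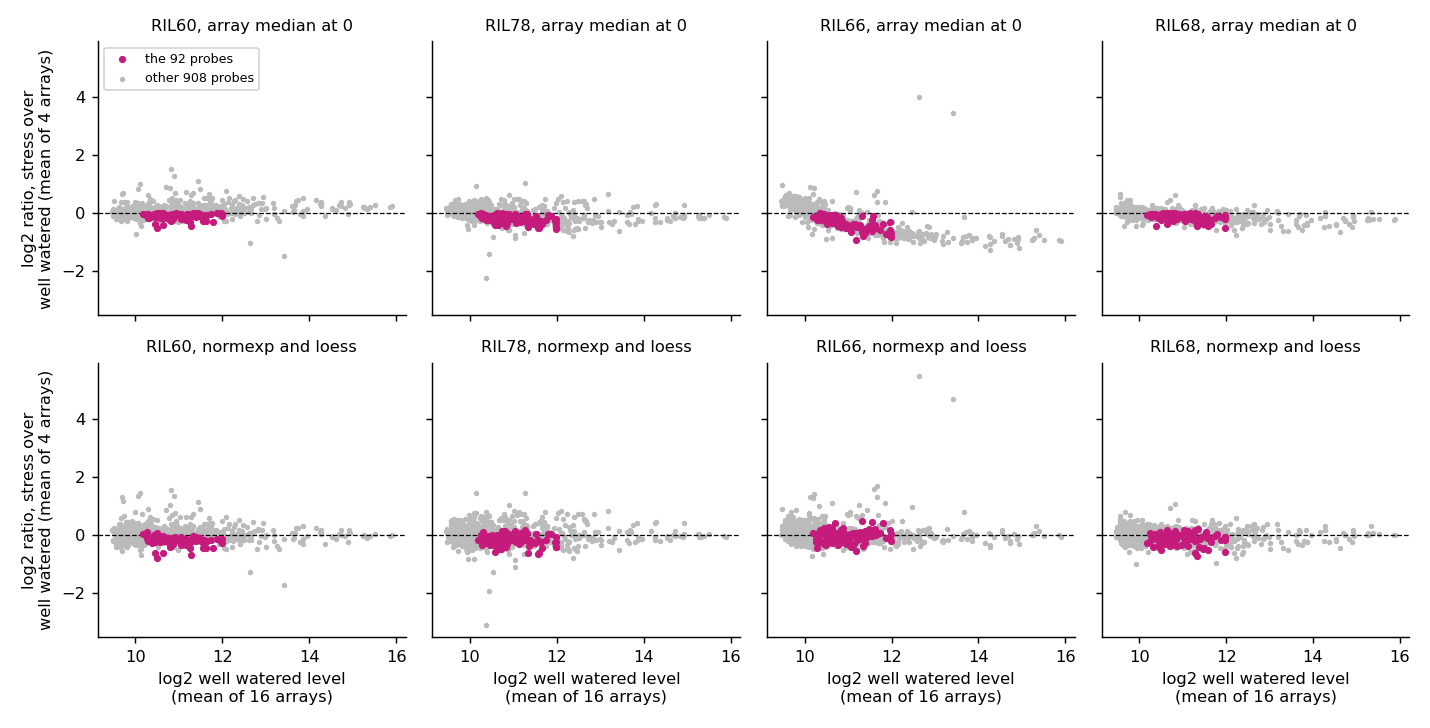
Log2 ratio of stress over well watered per line (y axis, mean of 4 arrays) against the mean log2 well-watered signal (x axis), with the 92 probes in magenta and the other 908 in grey. In the upper row, with array medians at 0, the ratios of RIL66 slope down with signal (rho of -0.87), and in the lower row, after normexp and loess, less so (rho of -0.24).

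**Figure D4:**
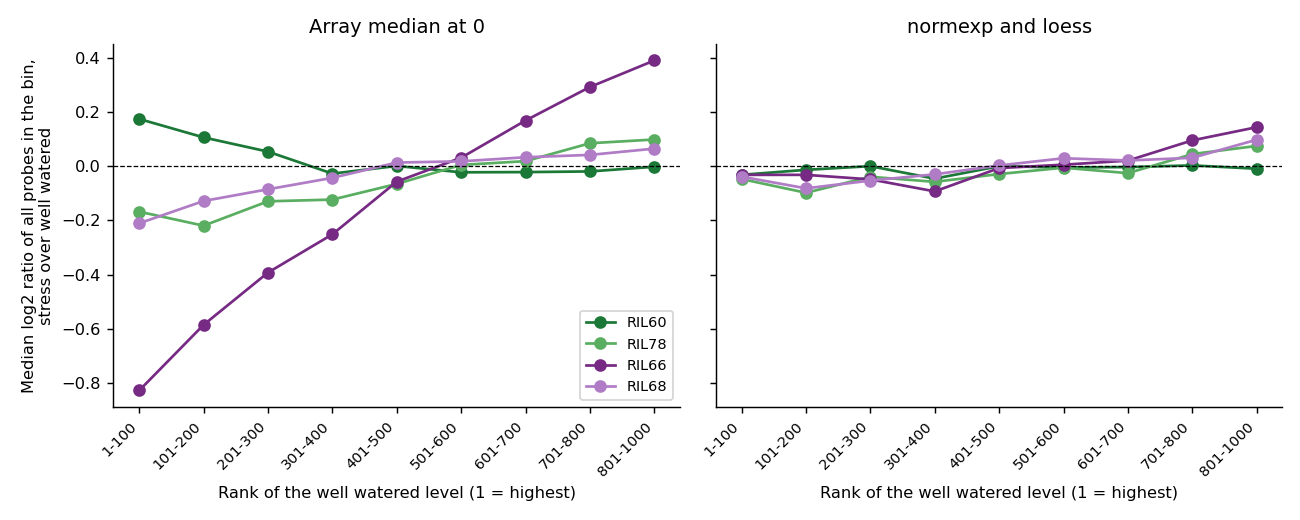
Median log2 ratio of stress over well watered of all probes (y axis) in bins of well-watered rank (x axis, 1 is the highest), by line, with array medians at 0 on the left and after normexp and loess on the right. The RIL66 median runs between -0.83 and 0.39 on the left.

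The direction also depends on taking off the array median. The median raw difference of stress minus well watered over all probes ran from -0.42 on RIL60 replicate 1 to 1.78 on RIL66 replicate 1. On RIL66 the raw difference of the 92 probes themselves had medians of 1.55, 0.61, 0.15 and 0.09, all above 0 but lower than those of all probes on the same arrays. With no centring, 0 of the 700 probes were below 0 in all 4 lines. The arrays cannot show a shift that all probes share, so lower here means lower relative to the rest of the array.

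The 30 probes that stayed below 0 in all 4 lines after loess had mean loess ratios from -0.43 to -0.07, with a median of -0.20. Of them, 15 came from the 200 brightest of the 700 probes and 15 from the next 200, and 24 were below 0 in all 4 lines in the authors' deposited table too. The lowest was a116pe0829, with loess ratios of -0.82 in RIL60, -0.52 in RIL68, -0.22 in RIL66 and -0.16 in RIL78, each ± 0.14 (SE). Probe a116pe0578 remained among the 30 as well, and its RIL66 ratio was -0.20 after loess, in place of -0.84. Probe a116pe0637 left the group with 0.0087 in RIL66, and a116pe0778 with 0.16 in RIL66.

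In limma's moderated fit to the loess ratios of all 1000 probes, at a Benjamini-Hochberg adjusted p under 0.05, 3 of the 92 were lower in RIL60, beside 0.7% of all probes. In RIL78 7 of the 92 were lower, beside 3.3% of all probes. In RIL66 0 of the 92 were lower, beside 0.2%, and in RIL68 0 of the 92, beside 0.5%. At an unadjusted p under 0.05, 19 of the 92 were lower in RIL68, beside 8.1% of all probes, and 17 in RIL78, beside 9.6%. In RIL60 14 were lower, beside 4.3%, and in RIL66 7, beside 5.2%. The contrast is the one that chose the members, so nothing is read from these counts. Altogether 10 of the 92 were called lower in a line. None was called higher, which the choice of members largely fixes. In RIL60 the smallest adjusted p was that of a116pe0829, at 0.00126. In RIL78 a116pe0148 had -0.61 ± 0.15 (SE), with an adjusted p of 0.0137 in the limma fit. The count of 7 in RIL78 was 0 without RIL78 replicate 4, where 7 of all probes were called. In that limma fit 13 of the 92 and 69 of all probes had an unadjusted p under 0.05. The RIL78 count was 2 without replicate 1, with 17 of all probes, and 3 without replicate 3, with 19. The count of 3 in RIL60 was 1, with 1 of all probes, without RIL60 replicate 2, 3 or 4 or RIL66 replicate 3. The count in RIL66 was 1 without RIL66 replicate 3, with 5 of all probes, and that in RIL68 was 1 without RIL68 replicate 4, with 4 of all probes.

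With 1 mean per line as the unit, limma called 0 of the 92 lower over the 4 lines, as it called 0% of all probes. At an unadjusted p under 0.05, 20 of the 92 were lower, beside 4% of all probes, and the smallest adjusted p among the 92 was 0.551. With the 16 arrays taken as replicates the count was 9 of the 92, beside 2.6% of all probes.

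Split by dye, the rule's own ratios were below 0 on average in both orientations for 77 of the 92 probes, beside 27.1% of all probes, which the choice of members largely fixes. The rule did not use the difference between the orientations, nor the differences of the well-watered level from line to line. The dye difference, the loess ratio with stress in Cy5 minus that with stress in Cy3, ran from -1.07 to 0.66. The limma fit called it for 11 of the 92 after adjustment, 5 above 0 and 6 below 0, beside 10.9% of all probes. In this run the members thus carried dye differences about as often as other probes. With plain subtraction or the deposited ratios the share was higher among the members than among all probes, by the counts given in the closing section. Without RIL66 replicate 4 the count was 24 of the 92 and 192 of all probes. Without any 1 array of RIL60 or RIL78 it was 5 to 7 of the 92 and 52 to 74 of all probes. Stress was in Cy5 on replicates 1 and 2 of RIL60, RIL78 and RIL68, and on replicates 3 and 4 of RIL66. With the replicate number as a block, none of the dye calls was left, among the 92 or among all probes. In that limma fit 17 of the 92 and 161 of all probes had an unadjusted p under 0.05.

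The named dye differences are of loess ratios, from the fit without that block, and were picked for the smallest p. They were large beside the members' median mean loess ratio of -0.12. The mean ratios given by orientation are those of the rule, with array medians at 0. Their differences therefore need not equal the dye differences. That of a116pe0829 was 0.60 ± 0.14 (SE; adjusted p = 0.00986, limma), with mean ratios of -0.17 with stress in Cy5 and -0.43 with stress in Cy3. That of a116pe0257 was 0.64 ± 0.15 (SE; adjusted p = 0.0111, limma), with mean ratios of 0.0049 and -0.48 in the same order, so its low mean came from the Cy3 arrays. In the other direction, a116pe0381 had -1.07 ± 0.25 (SE; adjusted p = 0.0111, limma), and mean ratios of -0.47 with stress in Cy5 and 0.28 with stress in Cy3. Probe a116pe0101 had -0.81 ± 0.18 (SE; adjusted p = 0.00986, limma), and mean ratios of -0.43 and -0.00082 in that order. Each of these means averages 8 arrays.

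The well-watered level, after loess and scaling of the mean intensity between arrays (Aquantile), differed between lines for 17 of the 92 probes by limma's moderated F test, beside 15.5% of all probes. This share is close to that of all probes. The noise of the well-watered channel also enters each line's ratio, so the measures are not fully separate. The range between the lowest and highest line had a median of 0.71 over the 92 and of 0.59 over all probes, on the log2 scale. Among the 17, RIL60, RIL78 and RIL68 were each the highest line for 5 and RIL66 for 2, and RIL78 was the lowest line for 9.

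The clearest difference was that of a116pe0148. Its well-watered log2 level was 12.48, 12.68, 12.75 and 12.69 in RIL60, against 9.53, 9.94, 9.89 and 10.24 in RIL66. It was 11.29, 12.70, 10.98 and 10.84 in RIL68 and 9.32, 10.51, 11.06 and 10.77 in RIL78. RIL60 stood above RIL66 and RIL78 on every array, and RIL68 stood above RIL66, while RIL68 overlapped with RIL60 and RIL78, and RIL78 with RIL66 (adjusted p = 0.000149, limma F test). The order of the means was RIL60, RIL68, RIL78 and RIL66. Its stress ratio by the rule was -0.11 in RIL60 and -0.12 in RIL66, the lines with the highest and lowest level, but after loess it was -0.30 in RIL60 and 0.16 in RIL66.

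Probe a116pe0637 had a mean well-watered log2 level of 12.14 ± 0.66 in RIL68, 11.63 ± 0.30 in RIL60, 11.16 ± 0.25 in RIL66 and 10.05 ± 0.57 in RIL78 (SD, n = 4 arrays each; adjusted p = 0.000684, limma F test). The arrays of RIL78, at 9.38, 10.20, 10.75 and 9.86, lay below all arrays of the other 3 lines. RIL68, with 11.58, 12.57, 11.56 and 12.84, overlapped with RIL60, with 11.91, 11.47, 11.84 and 11.29.

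No scan day held arrays of both a tolerant and a susceptible line. Differences in well-watered level between such lines therefore cannot be told apart from scan day. This covers RIL60 against RIL66 for a116pe0148, and RIL78 against RIL66 and RIL68 for a116pe0637. Among the tolerant and among the susceptible lines, scan days were partly tied to lines: 3 arrays of RIL60 and all 4 of RIL78 shared a day. So did 1 array of RIL66 and 3 of RIL68. The single RIL66 array on that day has no replicate, and its spread is taken to equal that of RIL68. Within the day of RIL60 and RIL78, 9 of the 92 and 64 of all 1000 probes differed in well-watered level. Within the day of RIL66 and RIL68 it was 0 of the 92 and 3 of all probes by limma, and 2 and 32 at an unadjusted p under 0.05. With the well-watered channel read in Cy3 alone the count was 9 of the 92 and 63 of all probes, and in Cy5 alone 1 and 28, with 8 arrays each.

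**Figure D5:**
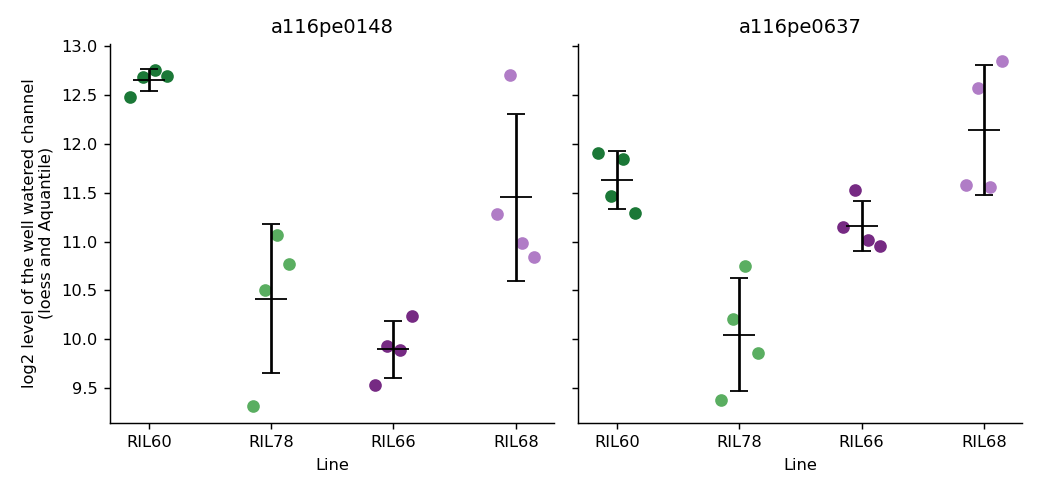
Log2 level of the well-watered channel after loess and Aquantile scaling (y axis) by line (x axis) for 2 probes. Points are arrays, and bars give the mean and SD of 4 arrays. Probe a116pe0148 is highest in RIL60, at 12.48 to 12.75, and a116pe0637 is lowest in RIL78, at 9.38 to 10.75.

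Each probe has 2 spots on an array, and both were kept for 1468 of the 1472 pairs of a member and an array. Both spots were below 0 in 60.8% of these, against 37.4% over all probes, a difference that the choice of members largely fixes. Among the lines, the ratios of the 92 probes were only weakly related: Pearson's r across probes was 0.33 between RIL78 and RIL68, 0.25 between RIL78 and RIL66, 0.10 between RIL66 and RIL68, and between -0.19 and -0.004 for RIL60 with the other lines. Probes are not independent replicates, and the cut at 0 limits the range of every ratio.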

How the data were processed

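Per the file headers, the authors scanned each slide with ScanArray software and deposited an intensity and a local background per spot and channel, not background subtracted; in the unit record these columns stand as "other", because the files hold 2 blocks. Every array has 1000 probes with 2 spots each; control spots and between 0 and 21 probe spots per array that the authors marked were left out. How the authors made their deposited log2 ratios is not stated in these sources. That table was matched to the spots through slide position, then probe name, with correlations of 0.847 to 0.991 per array with the loess ratios computed here, which gives stress over well watered; its scale remains partly unknown.

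For the rule, intensity minus background was floored at 50, logged to base 2 and averaged over the 2 spots of a probe, and each array's median ratio was set to 0. For tests, background was corrected by normexp (offset 50) and dyes by loess within arrays, and signs were turned to stress over well watered. In limma 3.58.1 (R 4.3.3), 1 fit over 16 arrays gave each line a coefficient beside 1 for the dye. The response over the 4 lines was fitted on 1 mean per line. The well-watered level was tested with an F test. P-values were adjusted by Benjamini-Hochberg over all 1000 probes. The fits were tested on simulated arrays with independent noise and changes larger than the members' mean ratios. Those runs therefore do not show the power for changes as small as the members'. The figures were drawn with matplotlib 3.10.9.

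The members, gene lists and tests were chosen with earlier results of these data known. Named probes were the 2 lowest by mean ratio, the 2 with the lowest mean ratio among the 5 below 0 on 15 arrays, the lowest in each line, the 2 with the smallest p per direction of the dye difference, the 2 with the smallest p for the well-watered level, those with the highest and lowest well-watered level, and the probes nearest the threshold. No gene list or marker list could be matched to a probe. Alternatives covered background, floor, normalisation, the deposited values, dim probes, marked spots, dye, blocks and arrays or lines left out. No 2 arrays were copies, as the highest correlation between 2 was 0.72.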

Additional observations from a re-analysis of the deposited data

Results flagged for a closer look

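Among the 44 sets of 4 arrays of a line examined for the 11 named members, 2 held an array far from the other 3 by Dixon's test at the 95% level, which chance gives for about 1 in 20 sets. For a116pe0567, RIL66 replicate 4 was at -2.672, while the other 3 arrays lay between -0.50 and -0.20. For a116pe0637, RIL68 replicate 4 was at -0.894, while the other 3 lay between -0.23 and -0.18. Both are log2 ratios of stress over well watered with the array median at 0.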

How the results depend on the processing

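The number of probes that met the rule was 92. It was 59 with loess on the rule's values, of which 30 were among the 92, and 0 with no centring. With normexp in place of subtraction it was 83, of which 50 were among the 92. With no background subtracted it was 94, of which 82 were among the 92. With normexp and loess together, chosen after seeing the data, it was 68, of which 30 were among the 92. It ran from 64 to 144 with 1 array left out. The counts that follow give the members called and then, in brackets, all probes called. In RIL60, 3 (7) became 9 (20) with no background correction, 8 (17) with plain subtraction, 10 (21) with the deposited log2 ratios, 1 (1) with no dye term and 1 to 4 (1 to 9) with 1 array left out. In RIL78, 7 (33) became 11 (51) with no background correction, 4 (18) with the array median, 14 (62) with the deposited ratios, 3 (20) with no dye term and 0 to 8 (7 to 43) with 1 array left out. In RIL66, 0 (2) became 1 (33) with the deposited ratios and 0 to 1 (0 to 5) with 1 array left out. In RIL68, 0 (5) became 1 (10) with the array median, 1 (8) with only the 716 probes above background on at least 8 arrays and 0 to 1 (1 to 5) with 1 array left out. Over the 4 lines, 0 (0) became 9 (26) with the 16 arrays as replicates. Dye differences, 11 (109), became 18 (128) with plain subtraction, 23 (175) with the deposited ratios, 20 (144) with only the probes above background and 5 to 24 (52 to 192) with 1 array left out. Differences of the well-watered level, 17 (155), became 9 (63) in Cy3 alone, 1 (28) in Cy5 alone, 9 (64) within the day of RIL60 and RIL78, 0 (3) within that of RIL66 and RIL68 and 12 to 19 (121 to 161) with 1 array left out. The mean ratio of a116pe0101 was -0.0025 with normexp and loess and -0.06 in the deposited table. The causes were not tested, save that left-out arrays, single dyes and single days leave fewer arrays. No named member's mean ratio turned with normexp and loess, deposited ratios or 1 array left out of the rule. With no centring, that of a116pe0612, for example, was above 0.

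Same-numbered arrays of different lines were not treated as pairs in the main fits. Of 24 such combinations, 14 had deviations from their line means correlated over 0.1, and the range was -0.41 to 0.55. Their mean correlation was 0.12, against -0.04 for arrays of different number. Arrays of the same dye orientation had a mean of 0.16, and those of opposite orientation -0.16. Pairing by number was not tested apart from dye. With the replicate block, 5 of the 92 and 33 of all probes were lower in RIL78, 3 and 4 in RIL60, and 0 and 3 in RIL66. Among the 92, 0 were lower in RIL68 and 14 differed in well-watered level. No count over all probes is given beside these, so nothing is read from them. With this block 0 of the 92 had a dye difference, as did 0 of all probes. A replicate number goes with the same dye orientation in RIL60, RIL78 and RIL68 and with the opposite one in RIL66, so that block takes up most of the dye term.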
